A study of Mus musculus with 12 samples.

Results

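The respiratory chain genes were the rows of the count table whose symbol names a subunit family of complexes I to V (the mt-Nd, mt-Co, mt-Atp and mt-Cyt genes, and the Nduf, Cox4 to Cox8, Uqcr, Atp5 and Sdha to Sdhd families). The rule found 107 of 18903 genes, and all 107 passed the filter on low counts, among 17938 genes tested. Of these, 13 are encoded by the mitochondrial genome and 94 by the nucleus. The nuclear genes comprised 79 subunits, 8 complex I assembly factors (Ndufaf1 to Ndufaf8), 2 accessory factors (Atp5s and Cox7a2l) and 5 pseudogenes. The RNA-seq libraries came from primary astrocytes grown from mouse brains taken at postnatal day 1 (P1), day 6 (P6) or day 8 (P8), with 2 libraries for each label at each time point, called biological replicates by the labels. The libraries labelled cKO came from hGFAP-cre::Rack7 fl/fl mice and those labelled WT from hGFAP-cre::Rack7 +/+ mice, so that both carried a Cre driven by a human GFAP promoter, which acts in neural stem cells that give rise to neurons as well as glia. The brains were stripped of meninges and the cultures were shaken to remove microglia and oligodendrocytes before RNA was taken. The remaining cells were grown further until confluent, so P1, P6 and P8 are ages at dissection. Each time point came from separate cultures, so age and culture cannot be told apart between time points. The p-values measure the spread between 2 libraries per group, pooled over the groups.

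Oxidative phosphorylation passes electrons from NADH through complex I, or from succinate through complex II, to complex III and then complex IV, which reduces oxygen. Complexes I, III and IV pump protons, and complex V uses the gradient to make ATP. Complexes I, III, IV and V are built from products of both genomes, while every subunit of complex II is nuclear. The mitochondrial genes are transcribed as long polycistronic RNAs that are cut into single messages, and mt-Nd6 alone among the protein genes lies on the other strand. Astrocytes are known for active glycolysis alongside respiration, and several complex IV subunits have a common form and a form restricted to particular tissues, such as Cox6b1 and Cox6b2.

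Some mitochondrial messages share bases, which bears on how reads were counted, so the shared stretches are printed here. The end of mt-Atp8 and the start of mt-Atp6 share 43 bases on the plus strand of GRCm38 (chrM:7927-7969), and the end of mt-Nd4l and the start of mt-Nd4 share 7 (chrM:10167-10173). Capitals mark the start codon of the downstream gene.
mt-Atp8 and mt-Atp6 overlap: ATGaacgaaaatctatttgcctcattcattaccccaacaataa
mt-Nd4l and mt-Nd4 overlap: ATGctaa

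The promoters of 3 complex IV genes are shown because Cox6b2 was lower in the libraries labelled cKO at every time point, while Cox6a1 and Cox8a were higher at P8. Each holds 250 bases before and 50 after the transcription start, from RefSeq on GRCm38.p6, and each gene lies on the minus strand. The windows are chr7:4753045-4753344 for Cox6b2, chr5:115348909-115349208 for Cox6a1 and chr19:7217567-7217866 for Cox8a. Capitals mark matches, on either strand, to the palindromic GC-rich motif of NRF1 or to the motif of GABPA (CCGGAAGT), both known regulators of nuclear respiratory genes.
Cox6b2: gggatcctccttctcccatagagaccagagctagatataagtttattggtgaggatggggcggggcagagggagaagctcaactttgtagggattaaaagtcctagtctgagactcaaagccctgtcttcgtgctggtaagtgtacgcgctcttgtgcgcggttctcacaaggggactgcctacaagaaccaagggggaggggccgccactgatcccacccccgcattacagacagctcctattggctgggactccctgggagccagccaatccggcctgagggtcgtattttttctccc
Cox6a1: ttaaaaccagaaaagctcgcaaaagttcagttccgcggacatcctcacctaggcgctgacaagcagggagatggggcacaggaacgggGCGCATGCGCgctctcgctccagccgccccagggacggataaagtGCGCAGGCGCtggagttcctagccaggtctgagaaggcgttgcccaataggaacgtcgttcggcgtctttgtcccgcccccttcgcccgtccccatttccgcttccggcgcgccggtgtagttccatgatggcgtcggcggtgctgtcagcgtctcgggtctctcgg
Cox8a: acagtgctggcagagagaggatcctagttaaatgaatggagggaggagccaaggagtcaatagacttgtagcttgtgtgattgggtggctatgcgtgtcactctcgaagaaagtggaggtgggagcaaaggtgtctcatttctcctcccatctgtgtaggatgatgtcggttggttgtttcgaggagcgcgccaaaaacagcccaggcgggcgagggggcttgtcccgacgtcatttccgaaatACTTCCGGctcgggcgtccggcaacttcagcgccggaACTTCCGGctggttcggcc

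A promoter was found for 72 of the 94 nuclear genes, and the NRF1 motif was present in 25% of them, against 6.85% of the 16522 promoters of protein-coding genes. The YY1 motif (AAGATGGC) was present in 12.5% against 3.29%, the GABPA motif in 6.94% against 5.52% and the TATA motif (TATAAA) in 6.94% against 12.9%. The Cox6a1 window holds 2 NRF1 matches and the Cox8a window 2 GABPA matches, while the letters of these 4 motifs do not occur in the Cox6b2 window. They are also absent from the promoter of Cox5a, not shown, another complex IV gene called higher at P8. The complex IV genes called higher at P8 thus included genes with and without a match. Any link between the motifs and the direction of the differences was not tested. These matches describe the letters and were not tested as sites.

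The libraries held 54413504 to 89183250 counts each, with TMM factors, which scale the library sizes, of 0.943 to 1.07. The targeted gene, Zmynd8 (which encodes RACK7), was higher in the libraries labelled cKO at every time point, at 160 to 242 CPM (counts scaled to a common library size) against 99.98 to 136 in those labelled WT. These are counts over the whole gene, so they do not check the loss of the floxed exons, and the groups below go by their labels. Pet117, on the same chromosome as Zmynd8, was near 0 in P1 WT but in cKO at P6 and P8. Whether labels were exchanged, at P1 or throughout, was not tested. An exchange at P1 would turn the sign of the P1 genotype differences and alter every value that sets P1 against a later time point, and an exchange throughout would turn the sign of all genotype differences. The 4 P6 libraries had 825 to 1436 CPM of Xist and at most 0.0622 summed CPM of 4 Y-linked genes, whereas the P1 and P8 libraries had at most 0.915 CPM of Xist and 259 to 344 summed CPM of the Y-linked genes. The P6 libraries thus differed in sex from all others, and age and sex cannot be told apart in any comparison of P6 with another time point, including the changes of the genotype difference. Markers of other cells moved with the groups. The summed level of 8 fibroblast markers was 424 to 438 CPM in P1 WT and 2515 to 2542 in P1 cKO, 6651 to 6710 in P6 WT and 2488 to 2679 in P6 cKO, and 25895 to 26002 in P8 WT and 8290 to 8543 in P8 cKO. The microglia list stood at 3293 to 3317 CPM in P8 WT and 6799 to 6818 in P8 cKO, and the list of 10 astrocyte markers at 1739 to 2130 and 754 to 765. Against these sums, the microglia marker Tmem119 was called lower and the astrocyte marker Aldh1l1 higher in P8 cKO. At P6, where most mitochondrial calls fell, 5 neuronal markers summed to 196 to 231 CPM in WT and 406 to 410 in cKO, 5 endothelial markers to 121 to 124 and 60.9 to 67.0, and 8 proliferation genes to 739 to 788 and 538 to 565. Not every member went with its sum. Of the neuronal markers, 3 were called higher and 1, Gap43, lower. Of the endothelial markers, 3 were called lower and 1, Ly6c1, higher, while 6 of the proliferation genes were called lower. Lum, a fibroblast marker, was at 0 in both P6 cKO libraries and at 7.21 and 8.57 CPM in P6 WT, and 1 of the 2 rows named Itgam, a microglia marker, was at 0 and 0.0156 CPM in P6 cKO and at 111 and 145 in P6 WT. The other Itgam row went the opposite way, at 234 and 305 CPM in P6 cKO and 108 and 66.1 in P6 WT. The whole microglia list stood at 3704 to 3745 CPM in P6 cKO and 3206 to 3344 in P6 WT. The part of these cells in the results was not tested. In bulk RNA, fewer cells of a type and less RNA per cell cannot be told apart.

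The mitochondrially encoded genes were far more abundant than the nuclear ones. Together the 13 genes took 3.87% to 5.01% of a library's counts, and the 94 nuclear genes 0.480% to 0.587%. Per kilobase of exon, the mean level over the 12 libraries was highest for mt-Co1, the catalytic core of complex IV, at 10294 CPM per kilobase, with mt-Cytb of complex III at 4306 and mt-Atp6, part of the proton channel of complex V, at 4014. The shares and these levels leave out reads counted on the nuclear copies described below. With those reads added, mt-Co1 stood at 11605 and mt-Atp6 at 8231, above mt-Cytb at 4306, so the order below mt-Co1 is uncertain. The lowest either way was mt-Nd3, at 420 CPM per kilobase without the copies and 817 with them, still above the highest nuclear gene, Cox6b1, at 142. The highest nuclear subunits of the other complexes were Atp5a1 of complex V at 135 CPM per kilobase, Uqcrb of complex III at 69.4, Ndufc2 of complex I at 58.1 and Sdha, the flavoprotein of complex II, at 57.6.

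The summed level of the 13 genes was 40855 and 40515 CPM in P1 WT and 43429 and 42436 in P1 cKO. It was 45099 and 40664 CPM in P6 WT and 50863 and 51732 in P6 cKO, and 39214 and 41061 in P8 WT and 44569 and 44923 in P8 cKO. At each time point both libraries labelled cKO lay above both labelled WT, and the P6 WT libraries differed most from each other. The nuclear sum did not separate in this way, at 5377 and 5387 CPM in P1 WT and 5105 and 5197 in P1 cKO, 5407 and 5887 in P6 WT and 5641 and 5165 in P6 cKO, and 4966 and 4875 in P8 WT and 5136 and 5217 in P8 cKO. The nuclear sum was thus lower in P1 cKO than in P1 WT, overlapped at P6 and was higher in P8 cKO. The ratio of the mitochondrial to the nuclear sum lay between 6.91, in P6 WT replicate 2, and 10.02, in P6 cKO replicate 2. The mitochondrial sum and the ratio leave out reads counted on the nuclear copies described below. No test was made of the sums.

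**Figure D1:**
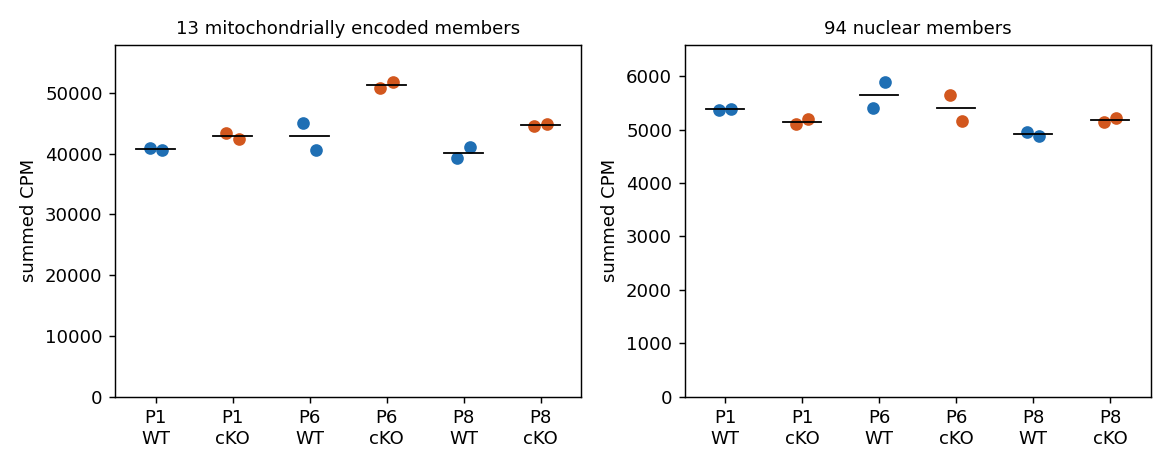
Summed TMM-scaled CPM of the 13 mitochondrially encoded genes (left, without reads counted on nuclear copies) and the 94 nuclear genes (right) in each of the 12 libraries, by group. Points are libraries (blue labelled WT, orange labelled cKO) and lines are group means. The 2 P6 cKO libraries, at 50863 and 51732 CPM, are the highest for the mitochondrial genes, while the nuclear sums of the P6 groups overlap.

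At P1, the comparison of labelled cKO with labelled WT called 1 of the 13 mitochondrial genes higher, where 6.54% of all genes tested were called higher and 2.94% lower. A gene was called at a Benjamini-Hochberg adjusted p below 0.05 over all genes from edgeR's quasi-likelihood test. The gene was mt-Cytb (chromosome M, 14145 to 15288), the cytochrome b of complex III, at 3948 and 3843 CPM in WT and 4554 and 4425 in cKO (log2 fold change 0.20, SE 0.045, edgeR adjusted p = 0.0219). The groups did not overlap. The median log2 fold change was 0.10 over the 13 mitochondrial genes and -0.06 over the 94 nuclear genes, beside 0 over all genes, and 12 of the 13 but 27 of the 94 had a positive value. The nuclear calls were 2, both lower, with 7 at an unadjusted p below 0.05. They were Cox6b2, described with the isoforms, and Atp5a1 (chromosome 18, 77773729 to 77782869), the alpha subunit of the catalytic head of complex V. Atp5a1 had 469 and 468 CPM in WT and 416 and 427 in cKO (log2 fold change -0.15, edgeR adjusted p = 0.0474), and part of its exons overlaps Haus1. All 3 calls were lost without P1 WT replicate 1 or without either P1 cKO library, and only that of Cox6b2 remained without P1 WT replicate 2. The mitochondrial calls at P1 numbered 4 without P6 WT replicate 1 and 3 without P6 WT replicate 2, libraries that enter this comparison through the shared spread.

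At P6, 11 of the 13 mitochondrial genes were called higher in the libraries labelled cKO, where 13.2% of all genes were called higher and 12.5% lower. The median log2 fold change over the 13 was 0.25, against -0.04 over the 94 nuclear genes and 0 over all genes. The rises spanned complexes I, III, IV and V and were small, with log2 fold changes from 0.15 to 0.42. The largest were those of mt-Nd2 and mt-Nd4l, which encode membrane subunits of complex I. For mt-Nd2 the WT libraries had 2300 and 2025 CPM and the cKO libraries 2860 and 2926 (log2 fold change 0.42, SE 0.052, edgeR adjusted p = 0.000344). Both cKO libraries exceeded both WT libraries by more than the WT libraries differed. For mt-Nd4l the values were 555 and 426 CPM in WT and 624 and 684 in cKO (log2 fold change 0.42, SE 0.10, edgeR adjusted p = 0.0163). The WT libraries of this gene lay wider apart than WT replicate 1 lay from cKO replicate 1. For mt-Nd4, the neighbour of mt-Nd4l, they were 3906 and 3402 CPM in WT and 4679 and 4844 in cKO (log2 fold change 0.38, edgeR adjusted p = 0.00112).

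The oppositely transcribed mt-Nd6, a complex I subunit, had 1374 and 1303 CPM in P6 WT and 1643 and 1645 in P6 cKO (log2 fold change 0.30, SE 0.046, edgeR adjusted p = 0.00131). Of mt-Nd6, 14 bases overlap mt-Nd5. The strand setting of the counting is not known, so the counts cannot show which strand these reads came from. mt-Nd5, another complex I subunit, had 4588 and 3810 CPM in WT and 4909 and 5337 in cKO (log2 fold change 0.29). mt-Cytb had 5660 and 5088 CPM in WT and 6452 and 6493 in cKO (log2 fold change 0.27, edgeR adjusted p = 0.00205). In each of these genes the lower cKO library lay above the higher WT library.

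The complex IV core genes rose together at P6. mt-Co1 had 14860 and 13714 CPM in WT and 17017 and 17021 in cKO (log2 fold change 0.25, SE 0.036, edgeR adjusted p = 0.00073). mt-Co2, which holds the site that accepts electrons from cytochrome c, had 2401 and 2295 CPM in WT and 2646 and 2612 in cKO (log2 fold change 0.16). mt-Co3 had 2215 and 2134 CPM in WT and 2459 and 2447 in cKO (log2 fold change 0.17). The cKO pairs of all 3 genes lay closer together than the WT pairs. The remaining calls were mt-Nd1, with 3413 and 3094 CPM in WT and 3638 and 3657 in cKO (log2 fold change 0.17), and mt-Atp6, with 2796 and 2522 in WT and 2928 and 2962 in cKO (log2 fold change 0.15). mt-Atp8, the small membrane subunit of complex V, overlapped between the groups at 852 and 674 CPM in WT and 821 and 919 in cKO (edgeR adjusted p = 0.191). mt-Nd3 had 181 and 178 CPM in WT and 186 and 185 in cKO (log2 fold change 0.05, edgeR adjusted p = 0.439).

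The P6 WT libraries differed from each other in most mitochondrial genes. Without P6 WT replicate 2, which had the lower mitochondrial levels, 8 of the 13 were called, the calls of mt-Nd1, mt-Nd5 and mt-Atp6 being lost, and without P6 WT replicate 1 there were 12. Without P6 cKO replicate 2, 7 were called. With only the P6 libraries in the fit, 5 were called.

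**Figure D2:**
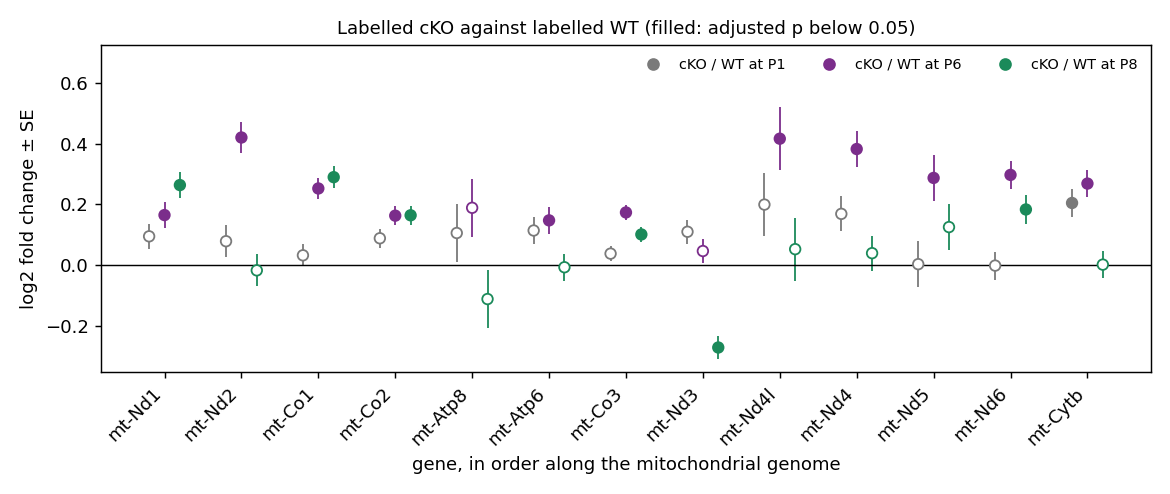
Log2 fold change (y axis) of labelled cKO against labelled WT for the 13 mitochondrially encoded genes in their order along the mitochondrial genome, at P1 (grey), P6 (purple) and P8 (green). Bars are standard errors and filled points have an edgeR adjusted p below 0.05. All P6 values lie above 0, and at P8 mt-Nd3 is the only filled point below 0, at -0.27.

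At P8 the mitochondrial genes no longer moved one way. Of the 13, 5 were called higher and 1 lower, where 19.6% of all genes were called higher and 14.8% lower, and the median log2 fold change was 0.05 over the 13, 0.06 over the 94 nuclear genes and 0.01 over all genes. mt-Co1 was higher, at 13944 and 14519 CPM in WT and 17391 and 17398 in cKO (log2 fold change 0.29, SE 0.036, edgeR adjusted p = 0.000204). mt-Nd1 was higher, at 2819 and 2950 CPM in WT and 3472 and 3455 in cKO (log2 fold change 0.26, edgeR adjusted p = 0.00101). The cKO libraries of both genes were nearly equal and well above the WT libraries. mt-Co2 rose by 0.16, mt-Co3 by 0.10 and mt-Nd6 by 0.18 on the log2 scale, with no overlap between the groups. mt-Nd3 fell by 0.27 on the log2 scale, from 164 and 168 CPM in WT to 135 and 140 in cKO (SE 0.039, edgeR adjusted p = 0.000531). mt-Nd2, which had risen most at P6, had 2064 and 2163 CPM in WT and 2079 and 2100 in cKO, and these values overlapped. mt-Cytb overlapped as well, at 4570 and 4751 CPM in WT and 4630 and 4706 in cKO. The call of mt-Co3 was lost without P8 WT replicate 1 or either cKO library, and that of mt-Nd6 without P8 WT replicate 1 or P8 cKO replicate 2.

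Pseudogene copies of the mitochondrial genome lie on chromosome 1, and the table counts them apart. Stretches of 31 bases in Gm28661, Gm10925, Gm28437, Gm28438 and Gm10222 matched at least 98.1% of those in mt-Co2, mt-Atp6, mt-Co3, mt-Nd3 and mt-Nd4l. These copies held 49.8%, 51.2%, 49.8%, 48.6% and 49.8% of the reads of each gene and its copy. Gm28439 held 29.3% of the reads with mt-Nd4, and Gm29216 10.995% with mt-Co1. The levels of these 7 genes per library are therefore uncertain. With the copies' reads added, a choice made after seeing the data, the counts called were 2, 11 and 6 at P1, P6 and P8 in place of 1, 11 and 6.

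At P6, 2 of the 94 nuclear genes were called higher and 5 lower, smaller shares than the 13.2% and 12.5% of all genes. The 2 risers were Atp5j and Ndufa1. Atp5j, coupling factor 6 in the stalk of complex V, had 45.3 and 52.4 CPM in WT and 72.9 and 63.0 in cKO (log2 fold change 0.47, SE 0.11, edgeR adjusted p = 0.0102). Its exons overlap those of Gabpa. Ndufa1, an X-linked accessory subunit of complex I, had 22.5 and 26.7 CPM in WT and 32.1 and 31.8 in cKO (log2 fold change 0.38, edgeR adjusted p = 0.0163). Neither gene overlapped between the groups, and both calls were lost without P6 WT replicate 1 and without P6 cKO replicate 1, that of Ndufa1 also without P6 cKO replicate 2.

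Among the genes lower at P6, Atp5o, the stalk subunit OSCP of complex V, had 90.1 and 98.9 CPM in WT and 80.2 and 70.5 in cKO (log2 fold change -0.33, edgeR adjusted p = 0.00973). Sdhb, the iron-sulphur subunit of complex II, had 63.9 and 65.1 CPM in WT and 55.8 and 52.4 in cKO (log2 fold change -0.25, edgeR adjusted p = 0.0129). In both the groups stood apart, yet their calls were lost without P6 WT replicate 2 or P6 cKO replicate 2. Atp5a1 was lower again, at 440 and 463 CPM in WT and 402 and 377 in cKO (log2 fold change -0.21, edgeR adjusted p = 0.00406). By complex, the median log2 fold change of the nuclear subunits at P6 was 0.00 for complex I, -0.10 for II, -0.03 for III, -0.04 for IV and -0.08 for V.

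At P8, 7 of the 94 nuclear genes were called higher and 4 lower, smaller shares than the 19.6% and 14.8% of all genes. Of the 16 nuclear subunits of complex IV, 3 were called higher, a share near the 19.6%, and 13 had a positive value. Cox5a, a subunit on the matrix side of complex IV, had 55.1 and 54.5 CPM in WT and 63.6 and 74.0 in cKO (log2 fold change 0.33, edgeR adjusted p = 0.0300). Cox8a had 80.3 and 75.0 CPM in WT and 94.9 and 93.8 in cKO (log2 fold change 0.28, SE 0.065, edgeR adjusted p = 0.00827). Cox6a1 had 87.0 and 90.8 CPM in WT and 104 and 102 in cKO (log2 fold change 0.21, edgeR adjusted p = 0.0428). These are small accessory subunits around the mitochondrially encoded core, and none of the 3 overlapped between the groups. Ndufa9, an accessory subunit of complex I, had 54.9 and 51.9 CPM in WT and 67.8 and 69.5 in cKO (log2 fold change 0.36, SE 0.083, edgeR adjusted p = 0.00795). The other risers, at 0.17 to 0.18 on the log2 scale, were Atp5b, the catalytic beta subunit of complex V, Atp5g2, which encodes its membrane ring, and Ndufs1, the largest subunit of complex I.

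The P8 fallers besides Cox6b2 belonged to complex I. Ndufa3, an accessory subunit, had 32.0 and 29.7 CPM in WT and 25.4 and 24.8 in cKO (log2 fold change -0.30, edgeR adjusted p = 0.0256). Ndufb3, in the membrane arm, had 27.8 and 27.3 CPM in WT and 21.9 and 24.0 in cKO (log2 fold change -0.27, edgeR adjusted p = 0.0335). Ndufaf7, a methyltransferase that acts during complex I assembly, had 21.1 and 20.6 CPM in WT and 14.9 and 14.7 in cKO (log2 fold change -0.49, edgeR adjusted p = 0.0206). The groups of all 3 stood apart. The P8 nuclear calls depended on single libraries, since leaving out 1 of the 4 P8 libraries gave 3 to 5 calls in place of 11, the fewest without P8 WT replicate 2. Atp5b, Atp5g2, Cox6a1, Ndufaf7 and Ndufs1 were lost in each of these 4 fits, and Cox6b2 in none. Exons of Ndufs1 overlap those of Ino80dos by 489 bases, and those of Ndufb2 overlap Braf by 146. Exons of Ndufa3 overlap Tfpt by only 4 bases. Atp5o, Atp5g2, Cox7a2l and Ndufa12 share stretches of sequence with pseudogenes. The counts of such genes are uncertain where reads could have gone to either.

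**Figure D3:**
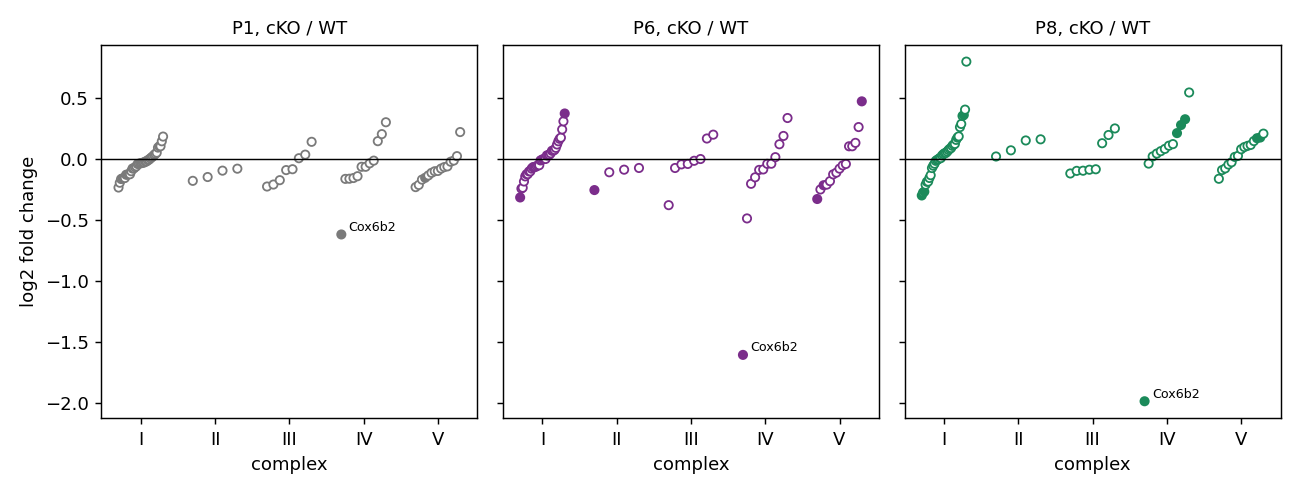
Log2 fold change (y axis) of labelled cKO against labelled WT for the 75 nuclear subunit genes with a mean of at least 1 CPM, by complex (x axis, genes sorted by value within each complex), at P1, P6 and P8. Filled points have an edgeR adjusted p below 0.05. Cox6b2 lies below every other gene at each time point, at -0.62, -1.60 and -1.99.

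Cox6b2 (ENSMUSG00000051811, chromosome 7, 4751792 to 4753094) encodes the form of subunit 6B best known from testis. The P1 libraries had 13.4 and 10.7 CPM in WT and 8.09 and 7.65 in cKO. The P6 libraries had 25.3 and 29.1 CPM in WT and 9.24 and 8.65 in cKO, and the P8 libraries 31.4 and 35.2 in WT and 8.32 and 8.51 in cKO. The groups did not overlap at any time point. The level thus differed between time points in the libraries labelled WT and stayed between 7.65 and 9.24 CPM in those labelled cKO. Age and sex cannot be told apart in the steps to and from P6, and an exchange of labels at P1 would alter both series. The log2 fold change of cKO against WT was -0.62 (SE 0.13, edgeR adjusted p = 0.0166) in the P1 libraries, -1.60 (edgeR adjusted p = 2.11e-05) in those of P6 and -1.99 (edgeR adjusted p = 3.21e-06) in those of P8. This difference changed by -0.99 on the log2 scale from P1 to P6 (edgeR interaction term, adjusted p = 0.00538) and by -1.37 from P1 to P8 (adjusted p = 0.000438). The former value crosses the change of sex, and the latter compares libraries of the same sex. Without P1 WT replicate 1 or either P1 cKO library the P1 call was lost.

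The common form, Cox6b1, had 85.2 to 115 CPM over the 12 libraries. It was not called between the labels at any time point, with log2 fold changes of -0.16, -0.04 and 0.08 and edgeR adjusted p of 0.288, 0.802 and 0.469. The other restricted forms were rare. Cox4i2, the oxygen-sensitive form of subunit 4, had 0.521 and 0.949 CPM in P6 WT and 2.19 and 2.41 in P6 cKO (log2 fold change 1.64, SE 0.56, edgeR adjusted p = 0.0601), while Cox4i1 had 111 to 240 CPM in the 12 libraries. Cox4i2 rose from P1 to P6 within cKO, from 0.221 and 0.667 CPM (log2 fold change 2.37, edgeR adjusted p = 0.0104). This call was lost without P1 cKO replicate 1, and the step crosses the change of sex. The muscle forms Cox6a2 and Cox7a1 stood at 0 to 1.57 and 0.201 to 1.03 CPM, and Cox7a2 at 23.0 to 53.3.

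Ndufa4l2, a hypoxia-induced relative of the complex IV subunit Ndufa4, had at most 0.068 CPM in every P1 and P6 library. At P8 it had 0.656 and 0.623 CPM in WT and 0.191 and 0.404 in cKO. Against P6 WT, where it had no count, the P8 WT level was at least 28.1-fold higher, taking 3 counts over the group as the floor (edgeR adjusted p = 0.0168). This call was lost without either P6 WT library, and the step crosses the change of sex. The P8 labels were not called apart (edgeR adjusted p = 0.528). Part of Ndufa4l2 overlaps exons of Shmt2, and the counting rule for shared bases is not known.

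**Figure D4:**
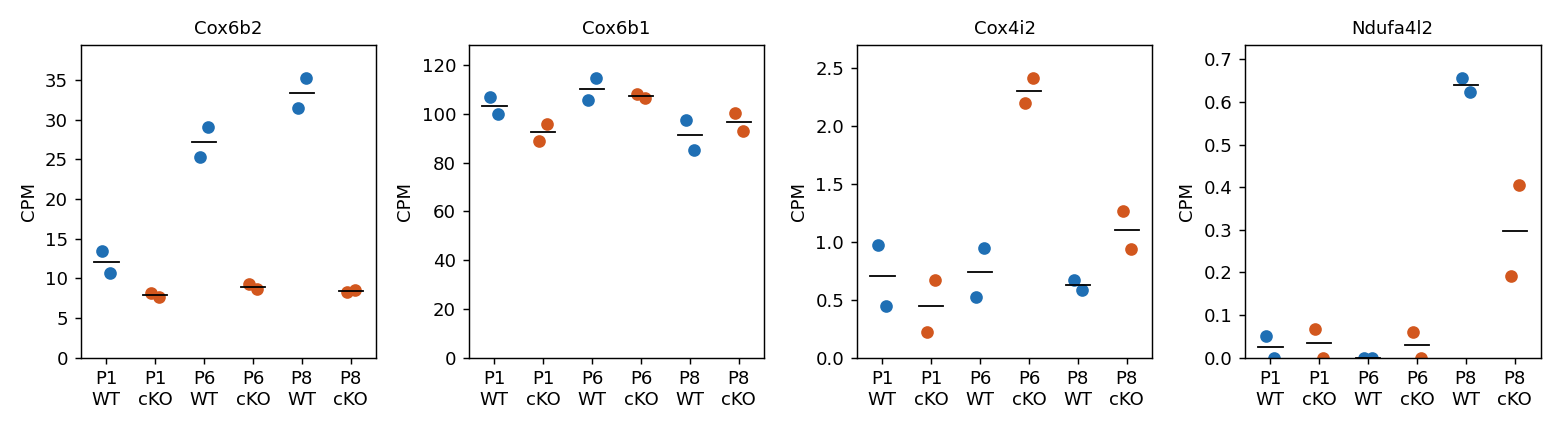
CPM (y axis) of Cox6b2, its common counterpart Cox6b1, and the restricted forms Cox4i2 and Ndufa4l2 in each of the 12 libraries, by group. Points are libraries (blue labelled WT, orange labelled cKO) and lines are group means. Cox6b2 reaches 35.2 CPM in P8 WT and stays at or below 9.24 CPM in every library labelled cKO.

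Between P1 and P6, mitochondrial genes rose under both labels. In WT, 7 of the 13 were called higher and 1 lower (all genes: 20.7% higher, 19.2% lower), and in cKO 9 were called higher (all genes: 19.7% higher, 18.7% lower). The largest rises under both labels were those of mt-Nd3, mt-Nd6, mt-Cytb and mt-Nd5. mt-Nd3 went from 100 and 101 CPM to 181 and 178 in WT (log2 fold change 0.84, SE 0.039, edgeR adjusted p = 2.44e-07). In cKO it went from 108 and 109 CPM to 186 and 185 (log2 fold change 0.77, edgeR adjusted p = 6.35e-07). mt-Nd6 rose by 0.47 in WT and 0.76 in cKO, mt-Cytb by 0.46 and 0.53 and mt-Nd5 by 0.38 and 0.66 on the log2 scale. mt-Nd1, at the start of the order, had values of 0.04 and 0.11 and was not called (edgeR adjusted p = 0.466 and 0.0621). mt-Co1 fell by 0.17 on the log2 scale in WT, from 16180 and 15945 CPM to 14860 and 13714 (edgeR adjusted p = 0.00454), and had a value of 0.05 in cKO (edgeR adjusted p = 0.304).

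Between P6 and P8 the calls went the other way. In WT, 5 of the 13 were called lower (all genes: 16.2% higher, 19.0% lower), and in cKO 9 (all genes: 20.0% higher, 19.2% lower). mt-Nd6 fell by 0.43 in WT and by 0.55 in cKO on the log2 scale, mt-Cytb fell by 0.21 and by 0.47, and mt-Nd5 fell by 0.22 and by 0.38. mt-Nd2 fell by 0.47 in cKO (edgeR adjusted p = 8.37e-05) and had a value of -0.03 in WT (edgeR adjusted p = 0.676). Both steps use the same P6 libraries, so a value that is high at P6 enters both. The 5 WT calls of this step numbered 3 without P8 WT replicate 1 and 8 without P6 WT replicate 2.

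**Figure D5:**
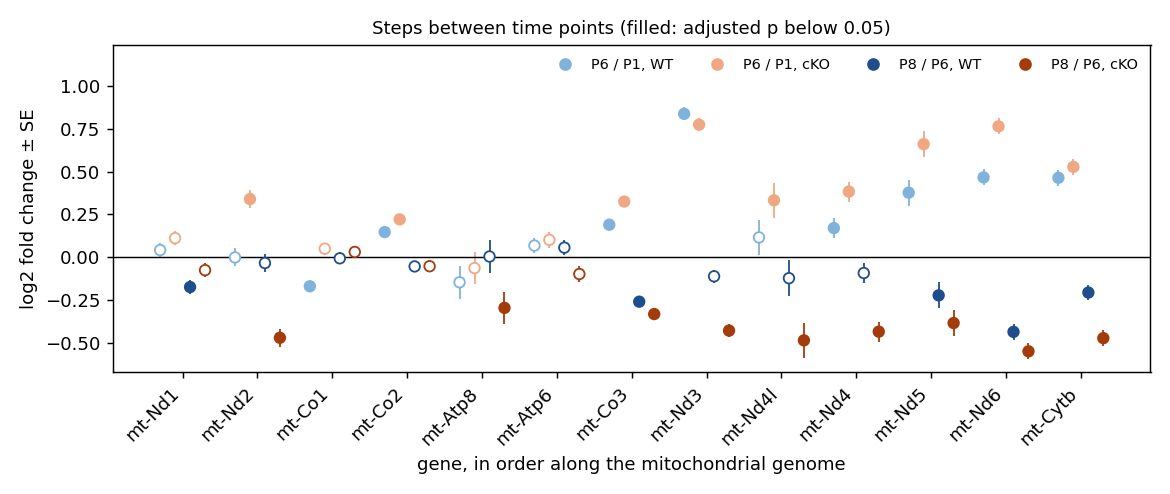
Log2 fold change (y axis) between consecutive time points for the 13 mitochondrially encoded genes in their order along the mitochondrial genome, for P6 against P1 (light) and P8 against P6 (dark) in the libraries labelled WT (blue) and cKO (orange). Bars are standard errors and filled points have an edgeR adjusted p below 0.05. mt-Nd3 shows the highest values from P1 to P6, at 0.84 and 0.77.

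From P1 to P6, 16 of the 94 nuclear genes were called higher and 6 lower in WT (all genes: 20.7% and 19.2%), and 21 and 5 in cKO (all genes: 19.7% and 18.7%). The shares called higher were thus below or near those of all genes and the shares called lower below them, with medians of 0.09 and 0.14 on the log2 scale beside medians of all genes near 0. Ndufa4 rose most among genes of at least 1 CPM in both, from 17.8 and 19.8 CPM to 40.6 and 45.8 in WT (log2 fold change 1.20, edgeR adjusted p = 0.0158). In cKO it went from 18.1 and 28.3 CPM to 69.9 and 39.3 (log2 fold change 1.23, edgeR adjusted p = 0.0144), with a wide spread at P6. The WT call of Ndufa4 was lost without either P1 WT library or without P6 WT replicate 2. Its cKO call was lost without P1 cKO replicate 1 or P6 cKO replicate 1. Atp5e, the small epsilon subunit of the complex V stalk, went from 33.6 and 30.9 CPM to 45.4 and 50.6 in WT (log2 fold change 0.57, edgeR adjusted p = 0.000619) and rose by 0.91 in cKO. Cox7a2 rose by 0.82 in WT. Sdhb fell by 0.37 in WT and by 0.47 in cKO, and the assembly factor Ndufaf5 fell by 0.61 under both labels. Uqcrb, a small subunit of complex III that shares sequence with 3 pseudogenes, fell by 0.31 in WT, and Ndufa12 fell by 0.81 and Ndufb2 rose by 0.76 in cKO. The 22 WT calls numbered 10 without P6 WT replicate 2 and 12 without either P1 WT library, and the 26 cKO calls 13 without P1 cKO replicate 1.

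From P6 to P8, 27 of the 94 nuclear genes were called lower and 4 higher in WT (all genes: 19.0% lower, 16.2% higher), with a median of -0.19 on the log2 scale beside 0.00 over all genes. The calls were spread over the complexes, with 8 of 15 subunits of complex V, 10 of 36 of complex I, 3 of 4 of complex II, 3 of 16 of complex IV and 2 of 8 of complex III lower. Uqcrfs1, the Rieske iron-sulphur protein of complex III, had 57.6 and 66.2 CPM in P6 WT and 44.3 and 43.9 in P8 WT (log2 fold change -0.49, edgeR adjusted p = 0.00142). Atp5g1, another gene for the membrane ring of complex V, fell by 0.52 and Ndufaf8 fell by 0.66. Sdha went from 255 and 258 CPM to 224 and 226 (log2 fold change -0.19, edgeR adjusted p = 0.00214). Cox7a2l, which helps join complexes III and IV into supercomplexes, rose from 104 and 109 CPM to 144 and 137 (log2 fold change 0.41, SE 0.055, edgeR adjusted p = 0.000433). The sets stood apart in each of these genes. Ndufa6 and Ndufaf5 rose by 0.42. The 31 WT calls numbered 11 without P6 WT replicate 2, 18 without P8 WT replicate 1 and 10 without P8 WT replicate 2.

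In cKO the same step called 15 of the 94 lower and 4 higher, below the 19.2% and 20.0% of all genes, with a median of -0.09. Cox7a2l rose there too, from 100 and 102 CPM to 141 and 135 (log2 fold change 0.45, edgeR adjusted p = 0.000152). Sdhb rose from 55.8 and 52.4 CPM to 67.3 and 69.0 (log2 fold change 0.33, edgeR adjusted p = 0.00179), and Ndufaf5 rose by 0.38. Ndufa3 fell by 0.65, Ndufa1 fell by 0.53 and Atp5s, a factor that couples the parts of complex V, fell by 0.60. The 19 calls numbered 9 without P8 cKO replicate 1 and 10 without P8 cKO replicate 2.

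The interaction terms compared the genotype difference between time points. From P1 to P6, 4 of the 13 mitochondrial genes were called higher and 1 of the 94 nuclear genes, Cox6b2, lower (all genes: 7.12% higher, 8.19% lower). From P6 to P8, 4 mitochondrial genes were called lower and 4 nuclear genes higher (all genes: 12.6% higher, 8.83% lower). From P1 to P8, 7 nuclear genes were called higher and 1 lower, and 1 mitochondrial gene higher and 2 lower (all genes: 14.0% higher, 11.7% lower).

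The rest of the pathway was read from lists of other mitochondrial genes. For comparison, the P1 test called 6.54% of all genes higher and 2.94% lower, the P6 test 13.2% and 12.5%, and the P8 test 19.6% and 14.8%. Of 82 mitochondrial ribosomal proteins tested, which translate the 13 messages, 1 was called higher at P1, 2 higher and 1 lower at P6 and 7 higher at P8, each a smaller share than that of all genes. Mrpl33 rose at all 3 time points, with log2 fold changes of 0.50, 0.79 and 0.37, and at P6 it had 32.96 and 32.0 CPM in WT and 56.2 and 56.4 in cKO (edgeR adjusted p = 2.69e-05). Mrps6 had 65.0 and 62.6 CPM in P6 WT and 127 and 109 in P6 cKO (log2 fold change 0.89, edgeR adjusted p = 0.000142). Mrpl14 fell by 0.69 at P6. From P1 to P6 in WT, 24 of the 82 were called lower, where 19.2% of all genes were.

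Of 15 genes for copying and transcribing mitochondrial DNA, 2 were lower at P8 (all genes: 14.8%), namely Twnk, the helicase, which fell by 0.32, and Mterf4, which fell by 0.74 on the log2 scale. Tfam, which packages mitochondrial DNA and starts its transcription, had 22.0 to 28.4 CPM over the 12 libraries. Of 16 genes for processing and stability of mitochondrial RNA, 3 rose at P8, a share near the 19.6% of all genes, namely Lrpprc, which stabilises the messages (log2 fold change 0.22, edgeR adjusted p = 0.0192), Trmt10c (0.32) and Pnpt1 (0.28). Of 9 nuclear regulators of mitochondrial biogenesis, Perm1 rose at P8, from 3.38 and 4.09 CPM in WT to 8.03 and 6.43 in cKO (log2 fold change 0.95, edgeR adjusted p = 0.00534).

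Of 40 further assembly factors, 4 were called higher and 2 lower at P8, smaller shares than those of all genes. Coa4, for complex IV, rose by 0.73 and Ttc19, for complex III, fell by 0.33. Pet117, also for complex IV, had at most 0.0168 CPM in P1 WT and 5.71 to 6.62 in P1 cKO, but 4.64 to 5.14 in P6 WT and at most 0.0156 in P6 cKO, and 3.35 to 4.47 in P8 WT and at most 0.0136 in P8 cKO. Its near absence thus fell on opposite labels at P1 and at the later time points, and whether labels were exchanged was not tested. Of 8 electron carriers and dehydrogenases that feed the chain, 2 rose at P6 and 3 at P8. Gpd2, the mitochondrial glycerol phosphate dehydrogenase, rose by 0.51 at P6, and Sqor, which oxidises sulphide, rose by 0.65 at P8.

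Of 13 citric acid cycle enzymes, 1 was lower at P6 (all genes: 12.5%), and 3 were higher and 1 lower at P8 (all genes: 19.6% and 14.8%). Idh3b rose by 0.35 and Mdh2 by 0.28, and Fh1 fell by 0.42 on the log2 scale. Of 12 hypoxia-induced genes, 2 were higher at P1, 4 higher and 2 lower at P6, and 5 higher and 2 lower at P8. Car9, a carbonic anhydrase, had 3.76 and 4.67 CPM in P6 WT and 10.04 and 9.68 in P6 cKO (log2 fold change 1.23, edgeR adjusted p = 0.000809), and Adm, adrenomedullin, rose by 1.09 at P8. Egln3, an oxygen-sensing hydroxylase, fell by 1.17 at P8, and Vegfa rose by 0.75 at P1 and fell by 0.31 at P6.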

How the data were processed

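RNA-seq of primary astrocytes was examined in 12 libraries, 6 groups of 2. The authors mapped the reads with Hisat2 to GRCm38 and deposited raw counts per gene, whole numbers that were not normalized. The counting program, its annotation, strand setting and treatment of reads that map to several places are not stated in any source that was used, which matters for overlapping genes and nuclear copies. Gene positions and exon lengths came from GENCODE vM21 (GRCm38), which held 18861 of 18903 identifiers. Counts were fitted in R 4.3.3 with edgeR 4.0.16, with a mean for each group over all 12 libraries, TMM scaling, edgeR's expression filter and its quasi-likelihood test, adjusted by Benjamini-Hochberg over 17938 genes. The contrasts subtracted WT from cKO for P1, P6 and P8, compared consecutive time points separately for WT and for cKO, and compared the genotype difference between time points (interaction terms). Scripts were tested on simulated data, with 50 genes changed at each size in the P6 genotype comparison. edgeR recovered 2% of the genes changed by 0.3 on the log2 scale, 14% by 0.5, 70% by 1 and 94% by 2. A gene that was not called may thus still differ by a small amount. The methods of the study name ballgown and DESeq2 with p and a fold change of 1.5, and DESeq2 1.42.0, other scalings, no filter, a replicate block, the compared groups alone and the fold rule were tried as alternatives.

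Genes named were the 13 mitochondrial genes, Zmynd8, fixed isoform pairs, the nuclear subunit with most counts per kilobase in each complex, up to 4 nuclear calls each way per genotype contrast and 3 each way per step or interaction, by fold change among genes of at least 1 CPM, and up to 2 each way per pathway list. Others were named after their values were seen, namely Atp5b, Atp5g2, Ndufs1, Tfam, Xist, the Y-linked genes and the pseudogene copies. Members and lists were chosen with earlier results of these data known. Counting error weighs most, relative to the level, for genes near or below 1 CPM. It was not set against the spread between libraries. Of the genes that the rule for named genes picks, 2 are not reported here.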

Additional observations from a re-analysis of the deposited data

Results flagged for a closer look

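The genotype difference changed between time points in 24 cases, by an edgeR interaction term with an adjusted p below 0.05, while 7.12% and 8.19% of all genes were called higher and lower from P1 to P6, 12.6% and 8.83% from P6 to P8 and 14.0% and 11.7% from P1 to P8. All values are changes of the log2 fold change of cKO against WT, and those that involve P6 cross the difference in sex.

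From P1 to P6 it changed by -0.99 for Cox6b2 and by 0.22, 0.14, 0.34 and 0.30 for mt-Co1, mt-Co3, mt-Nd2 and mt-Nd6 (edgeR adjusted p 0.00538 to 0.0359). From P6 to P8 it changed by -0.27, -0.44, -0.32 and -0.34 for mt-Cytb, mt-Nd2, mt-Nd3 and mt-Nd4, and by 0.33, 0.25, 0.35 and 0.41 for the nuclear genes Atp5a1, Atp5b, Atp5o and Sdhb (edgeR adjusted p 0.00278 to 0.0420). The 4 mitochondrial calls of the earlier step were lost without P1 cKO replicate 2 and numbered 2, 1, 2 and 8 without P1 WT replicate 1, P1 WT replicate 2, P6 WT replicate 2 and P6 WT replicate 1. For the later step the 4 mitochondrial calls numbered 8, 2 and 2 without P6 WT replicate 1, P8 WT replicate 2 and P8 cKO replicate 1, and the 4 nuclear calls 8, 10 and 2 without P6 WT replicate 1, P6 cKO replicate 1 and P8 WT replicate 2.

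From P1 to P8, between libraries of the same sex, it changed by -1.37 for Cox6b2, -0.38 for mt-Nd3 and -0.20 for mt-Cytb. It changed by 0.26 for mt-Co1, 0.27 for Atp5a1, 0.23 for Atp5b, 0.48 for Cox5a, 0.34 for Cox8a, 0.49 for Ndufa9, 0.30 for Sdhb and 0.34 for Sdhd, the membrane anchor of complex II (edgeR adjusted p 0.000438 to 0.0456). The 8 nuclear calls numbered 3 to 5 without P1 WT replicate 1, P1 cKO replicate 1 or any 1 of the P8 libraries.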

How the results depend on the processing

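No call of a gene changed sign in a setting that kept it. Calls, nuclear then mitochondrial, were 2 and 1 at P1, 7 and 11 at P6, 11 and 6 at P8, 22 and 8 for the step from P1 to P6 in WT, 31 and 5 for that from P6 to P8, and 26 and 9 and 19 and 9 for the same steps in cKO. With a fold change of at least 1.5 they were 1 and 0, 1 and 0, 1 and 0, 4 and 1, 2 and 0, 7 and 3, and 2 and 0, and with that fold and an unadjusted p 1 and 0, 2 and 0, 1 and 0, 5 and 1, 4 and 0, 9 and 3, and 2 and 0, so most calls lie below that fold. With the compared groups alone in the fit, which leaves fewer samples, nuclear calls were 1 at P1, 4 at P6, 17 and 12 for the 2 cKO steps and 2 for the interaction of P8 with P6 (4 in the fit to all libraries), and mitochondrial calls 6 at P1, 5 at P6, 2 for P8 against P6 in WT and 7 for the interaction of P8 with P1 (otherwise 3). At P1, nuclear calls were 1 with no filter and mitochondrial calls 2 with the nuclear copies added. For the interaction of P6 with P1, nuclear calls were 1, with 2 under DESeq2 size factors and 3 with DESeq2; the cause was not tested. Leaving out 1 library gave nuclear calls of 0 to 2 at P1, 3 to 13 at P8, 10 to 22 and 10 to 35 for the WT steps, 13 to 29 and 9 to 20 for the cKO steps, and 1 to 2, 2 to 10 and 3 to 12 for the interactions of P6 with P1, P8 with P6 and P8 with P1. It gave mitochondrial calls of 0 to 4 at P1, 7 to 12 at P6, 3 to 8 for P8 against P6 in WT, and 0 to 8 and 2 to 8 for the interactions of P6 with P1 and P8 with P6. Same-numbered replicates did not deviate together (correlations -0.063 to 0.0073); with the replicate block, P1 had 1 nuclear call and no other count moved by over 1.5 times. All genes are limited by 2 libraries per group, and those near 1 CPM, such as Cox4i2 and Ndufa4l2, also by depth.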

Other observations

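Of the mitochondrial ribosomal RNAs, which precede mt-Nd1 on the same strand and encode no protein, mt-Rnr1 had 266 and 282 CPM in P1 WT and 271 and 278 in P1 cKO, 157 and 155 in P6 WT and 145 and 149 in P6 cKO, and 143 and 144 in P8 WT and 212 and 212 in P8 cKO. From P1 to P6 it fell by 0.81 in WT and by 0.90 in cKO on the log2 scale, the step in which mt-Nd3, mt-Cytb, mt-Nd5 and mt-Nd6 rose (edgeR adjusted p = 4.08e-07 and 3.74e-07). For mt-Rnr2 this step had values of -0.09 in WT and 0.07 in cKO (edgeR adjusted p = 0.115 and 0.231). At P6 mt-Rnr2 was higher in cKO, at 449 and 434 CPM in WT and 499 and 543 in cKO (log2 fold change 0.24, edgeR adjusted p = 0.00251), near the median of 0.25 over the 13 messages, and mt-Rnr1 had a value of -0.09 (edgeR adjusted p = 0.166). At P8 mt-Rnr1 was higher in cKO by 0.57 (edgeR adjusted p = 6.35e-06), and mt-Rnr2 by 0.41 (edgeR adjusted p = 6.02e-05), larger values than that of any mitochondrial message at P8. The libraries were made by mRNA capture, so these levels are those left after it.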
